A study of Mus musculus with 6 samples.

Results

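Described here are the genes of 6 chains of alarmin and IL-18 receptors, Il1rl1, Il1rap, Il17rb, Il17ra, Crlf2 and Il18r1, and of the IL-1 decoy receptor, Il1r2, in lung group 2 innate lymphoid cells (ILC2s). The 7 genes were chosen by gene symbol for these roles and for having a row in the gene count table, with earlier results of the same libraries known; all 7 have a row among 18478 genes, and all 7 passed the filter on low counts that left 14084 genes for testing.

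Tissue alarmins are cytokines released by damaged or irritated epithelium, and ILC2s, lymphocytes that lack antigen receptors, respond to them by secreting type 2 cytokines. IL-33 acts through ST2 (Il1rl1) and the shared accessory chain IL-1RAcP (Il1rap), IL-25 through IL-17RB and IL-17RA (Il17rb, Il17ra), TSLP through CRLF2 and the IL-7 receptor chain (Crlf2, Il7r), and IL-18 through IL-18R1 and IL-18RAP (Il18r1, Il18rap). IL-1R2 (Il1r2) binds IL-1 as well but lacks the intracellular signalling domain, so it acts as a decoy that holds the ligand and can also engage the accessory chain.

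The libraries come from ILC2s sorted from the lungs of BALB/c mice, aged 6 weeks, that lack cannabinoid receptor 2 (CB2 KO, 3 libraries) or are wild type (WT, 3 libraries). CB2, the product of Cnr2, is a G protein-coupled receptor found mainly on immune cells, and the study asks what its loss does to ILC2 transcripts. Mice of both genotypes had been given 3 intranasal doses of 1 µg of recombinant IL-33, and the cells of both then spent 24 h in medium with IL-2 (10 ng/mL) and IL-7 (10 ng/mL). No unexposed group is among the samples, so every value refers to cells that had met IL-33, the ligand of ST2, and IL-7, the ligand of the Il7r chain. The labels state neither how the CB2 allele was made nor whether each replicate is a different animal; p-values therefore reflect the spread among these samples alone, and that spread may be technical.

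Library totals lay between 17141698 and 21621008 estimated counts, and a gene at 0 may have up to 0.140 to 0.174 CPM (3 counts; CPM is the count scaled to library size, here adjusted by TMM). Such limits cover counting error only. Cnr2 was at 9.24, 1.60 and 3.84 CPM in CB2 KO replicates 1 to 3, against 9.32, 17.4 and 15.8 CPM in WT replicates 1 to 3 (log2 fold change -1.52, SE 0.56; adjusted p = 0.514 by edgeR's quasi-likelihood test). The library labelled CB2 KO replicate 1 was thus level with the lowest WT library for the targeted gene; it also separated from the other 5 on principal component 1 (37.6% of variance), with counts for 15005 genes where they had 15640 to 16514. Receptor results are therefore given both for all libraries and with it left out. Of 21 ILC2 markers, 20 had a row, and their summed level was 18255 to 20732 CPM in CB2 KO and 18955 to 20054 CPM in WT, so markers of the labelled cell type were present in every library; Il1rl1, Il17rb and Il7r are themselves on that list, and Il5 (6972 to 10015 CPM) makes up much of the sum.

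Of the receptors, 3 stand in one cluster of IL-1 receptor genes on chromosome 1, and the promoters of the cluster genes that the results turn on are shown first: Il1r2, the receptor with the largest difference between the groups relative to its error; Il1rl2, its cluster neighbour with the largest fold; and Il1rl1, which had the most counts of the set and the narrowest interval. Each stretch runs from 250 bases before to 50 bases after a RefSeq transcript start (build GRCm38.p6, plus strand, 5′ to 3′). Capitals mark the letters GATAA or their reverse complement TTATC, the core read by GATA factors, and CACGTG, an E-box. The Il1r2 stretch is chr1:40085843-40086142, inside the span of the GENCODE gene; the Il1rl2 stretch is chr1:40324339-40324638; the upstream Il1rl1 start has chr1:40429320-40429619.
Il1r2: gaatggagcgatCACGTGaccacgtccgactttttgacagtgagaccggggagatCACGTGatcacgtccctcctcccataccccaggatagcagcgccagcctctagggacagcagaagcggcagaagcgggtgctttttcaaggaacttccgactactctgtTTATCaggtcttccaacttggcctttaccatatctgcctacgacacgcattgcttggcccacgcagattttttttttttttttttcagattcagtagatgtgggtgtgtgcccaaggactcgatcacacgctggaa
Il1rl2: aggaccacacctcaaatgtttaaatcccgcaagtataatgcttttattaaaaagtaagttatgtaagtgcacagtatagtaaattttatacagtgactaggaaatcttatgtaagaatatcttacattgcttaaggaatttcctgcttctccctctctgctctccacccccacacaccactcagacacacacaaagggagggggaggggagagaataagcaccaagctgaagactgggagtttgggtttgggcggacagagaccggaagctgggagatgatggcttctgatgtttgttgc
Il1rl1: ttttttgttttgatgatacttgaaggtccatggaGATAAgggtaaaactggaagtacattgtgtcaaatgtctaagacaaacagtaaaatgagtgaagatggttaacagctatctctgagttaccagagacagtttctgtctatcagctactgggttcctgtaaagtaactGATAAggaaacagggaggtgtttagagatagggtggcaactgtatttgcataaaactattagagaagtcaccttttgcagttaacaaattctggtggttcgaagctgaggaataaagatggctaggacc

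The Il1r2 stretch held 2 copies of CACGTG and 1 GATA core, the Il1rl2 stretch held neither, and the upstream Il1rl1 stretch held 2 GATA cores and no E-box. The stretch of the other Il1rl1 start, chr1:40439379-40439678, is not printed here and held 1 GATA core and no E-box. Both strands of 32851 RefSeq promoters of the same length were searched. A GATA core occurred in 25.4% of them and CACGTG in 7.15%, while 195 promoters (0.594%) held at least 2 copies of CACGTG and 5.27% held at least 2 GATA cores. The AP-1 letters TGANTCA, in 7.81% of all promoters, were in none of the 3 stretches, and the STAT letters TTCNNNGAA, in 8.30%, occurred once, in that of Il1r2. These motifs were picked after the expression values were known, and a match describes letters only. RefSeq promoters were matched for 6 of the 7 genes, the exception being Il17ra.

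The question for the expression data was whether loss of CB2 was accompanied by another level of the receptors through which ILC2s sense alarmins. By edgeR's quasi-likelihood F-test, with Benjamini-Hochberg adjusted p under 0.05 over all genes tested as the call, 0 of the 7 genes passed; 15 of 14084 genes did (0.107%), 6 of which rose and 9 of which fell. At an unadjusted p under 0.05 the count was 1 of 7, beside 1211 of all genes tested (8.60%). It was 1 of 7 with DESeq2, which called 363 of 14046 genes (2.58%), 0 of 7 with limma-voom, which called 15 (0.107%), and 0 of 7 with limma on the deposited normalized signal, which called 17 (0.121%). Where the count was 1, the gene was Il1r2. The log2 fold changes (CB2 KO over WT) were positive for 4 genes and negative for 3, with a median of 0.05 (0.10 with the library labelled CB2 KO replicate 1 left out), beside a median of -0.0003 over all genes tested.

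**Figure D1:**
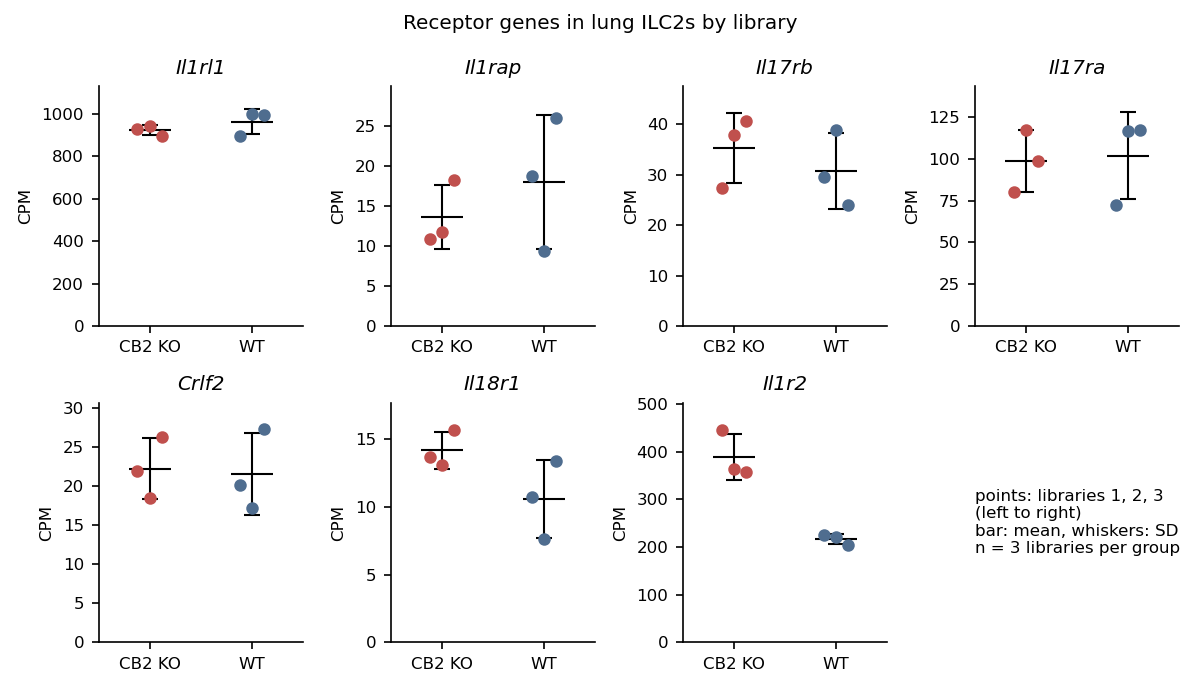
Level of each of the 7 receptor genes in CPM (y axes start at 0) in the 3 CB2 KO libraries (left) and the 3 WT libraries (right); points are libraries 1 to 3 from left to right, the bar is the mean and whiskers are 1 SD. Il1r2 is the gene whose groups do not overlap, with 358 to 445 CPM in CB2 KO against 205 to 225 CPM in WT.

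The decoy receptor gene Il1r2 (chromosome 1, 40074079 to 40125231, plus strand, mm10) was higher in every CB2 KO library than in every WT library. It had 445, 364 and 358 CPM in CB2 KO replicates 1 to 3, against 225, 221 and 205 CPM in WT replicates 1 to 3. These values rest on 8959, 7715 and 6151 counts in CB2 KO and 4827, 4529 and 3620 counts in WT, so counting error is small beside the spread. The groups did not overlap, and the lowest CB2 KO library was 1.65 times the WT mean, with 1.68 and 2.05 times in the others. Such a pattern, every CB2 KO library above every WT library, was found in 6.88% of all genes tested, and the opposite in 7.18%; among the 7 receptors the counts were 1 and 0.

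Il1r2 averaged 389 ± 48.8 CPM in CB2 KO and 217 ± 10.6 CPM in WT (SD, n = 3 each), a fold of 1.79 (95% interval 1.51 to 2.13) or a log2 fold change of 0.84 (SE 0.11). Its adjusted p by edgeR's quasi-likelihood test was 0.0614, which missed the threshold, and it ranked 20 of 14084 by p. DESeq2 gave a log2 fold change of 0.85 and an adjusted p of 8.65e-13, so the call depends on the tool. Over 14 alternatives the log2 fold change stayed between 0.73 and 0.89, with edgeR and limma adjusted p-values up to 0.373. Leaving out the library labelled CB2 KO replicate 1, which had the highest value, gave 0.73 (edgeR adjusted p = 0.0672). Among 2431 genes with a mean of at least 100 CPM, 3 had a log2 fold change at least as high as that of Il1r2, itself included, and 9 had one at least as large in either direction. The antisense gene Gm16894 overlaps Il1r2 without sharing an exonic base and had 1.39 CPM in CB2 KO and 1.02 CPM in WT on average.

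Single ILC2 markers were mostly lower in CB2 KO, unlike their sum. Log2 fold changes were negative in 15 of 20 tested (median -0.13; -0.14 with the library labelled CB2 KO replicate 1 left out), and in 10 all CB2 KO libraries lay below all WT libraries, beside 7.18% of all genes. Over all genes tested, 7047 of 14084 were negative. By edgeR and by limma-voom, 0 of the markers passed an adjusted p of 0.05. By edgeR 9 had an unadjusted p under 0.05 (8 negative, 1 positive), beside 8.60% of all genes. DESeq2 called 4 (Ly6a, Nmur1, Icos and, with a positive sign, Il5), beside 2.58% of all genes. The same shares over all genes hold for the marker lists below. Ly6a, which encodes Sca-1, had 1557, 1592 and 1586 CPM in CB2 KO against 2302, 1973 and 2157 CPM in WT (log2 fold change -0.44, SE 0.06; edgeR adjusted p = 0.0704). The lineage factor gene Gata3 had 987, 932 and 972 CPM in CB2 KO against 994, 1083 and 1095 CPM in WT (log2 fold change -0.13, SE 0.06).

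Il1r2 is also known to be expressed by neutrophils, monocytes and regulatory T cells, and summed markers of some other cell types were higher in CB2 KO as well. Of 14 macrophage and monocyte markers, 10 had a row and 4 were tested; their sum was 150 to 172 CPM in CB2 KO against 14.5 to 59.2 CPM in WT. In CB2 KO most of it was Chil3, a chitinase-like protein of alveolar macrophages, at 143, 108 and 135 CPM in CB2 KO against 0.559, 8.68 and 47.5 CPM in WT. Lyz2, the lysozyme gene of myeloid cells, had 10.4, 20.2 and 21.2 CPM in CB2 KO against 1.12, 1.27 and 2.55 CPM in WT (log2 fold change 3.42, SE 0.53; edgeR adjusted p = 0.0693), without overlap. Cd68 overlapped between the groups, with 9.59, 12.7 and 6.57 CPM in CB2 KO against 10.4, 6.58 and 9.11 CPM in WT (log2 fold change 0.17, SE 0.39). The defining receptor gene Csf1r was at 0, 5.48 and 6.44 CPM in CB2 KO and at 0, 1.46 and 0 CPM in WT, Siglecf and C1qb were at 0 in 2 CB2 KO libraries and in all WT libraries, and Cd14 was at 0 in all CB2 KO libraries.

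Neutrophil markers were represented by Mmp8 and Camp, 2 of 11 listed, with a sum of 7.33 to 15.8 CPM in CB2 KO and 0 to 5.12 CPM in WT; Camp was at 0 in 2 CB2 KO libraries and in all WT libraries. Mast cell and basophil markers, counted over 11 of 14 with a row and without Cyp11a1, which alone had 1148 to 1378 CPM, summed to 70.4 to 122 CPM in CB2 KO against 33.1 to 50.7 CPM in WT. Among them the tryptase gene Tpsb2 had 32.3, 15.7 and 21.8 CPM in CB2 KO against 3.31, 1.46 and 2.09 CPM in WT (log2 fold change 3.32, SE 0.52; edgeR adjusted p = 0.0860). For regulatory T cells, the 5 listed genes other than Il1r2 summed to 64.2 to 95.2 CPM in CB2 KO and 49.8 to 82.8 CPM in WT, and the defining factor gene Foxp3 was at 1.79, 5.22 and 1.31 CPM in CB2 KO and 3.96, 4.26 and 4.22 CPM in WT. Other than Il1r2, the tested genes of these 4 lists included 0 called by edgeR at an adjusted p of 0.05 and 0 by limma-voom; at an unadjusted p under 0.05 there were 4 mast cell and basophil markers (3 higher in CB2 KO, and Cyp11a1 lower), 2 macrophage and monocyte markers and 1 neutrophil marker, all 3 higher in CB2 KO. DESeq2 called 2 of the mast cell and basophil list (Tpsb2, higher, and Cyp11a1, lower) and 1 of the macrophage and monocyte list (Lyz2).

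Summed levels of the 7 other marker lists (eosinophil, T cell, B cell, NK cell and ILC1, ILC3, dendritic cell, epithelial and stromal) overlapped between the genotypes, although single markers in them did not. Of 5 tested dendritic cell markers 4 were positive, and 3 had an unadjusted p under 0.05: the class II gene H2-Ab1, with 19.9, 28.2 and 26.3 CPM in CB2 KO against 2.19, 10.9 and 14.8 CPM in WT, Itgax, with 7.05, 2.26 and 5.76 CPM in CB2 KO against 0, 2.05 and 0 CPM in WT, and Xcr1, lower in CB2 KO, with 20.1, 36.4 and 36.6 CPM against 79.8, 40.5 and 52.5 CPM in WT. Of 6 tested T cell markers 4 were positive, and 1, the T cell receptor complex gene Cd3g, had an unadjusted p under 0.05, with 25.6, 28.9 and 23.9 CPM in CB2 KO against 9.60, 17.2 and 15.1 CPM in WT. By edgeR, limma-voom and DESeq2, 0 of the genes of these 2 lists passed an adjusted p of 0.05. The part of these cells, and of the lower ILC2 markers, in the Il1r2 difference was not tested, and in bulk RNA a difference in the number of cells of a type cannot be told apart from a difference in RNA per cell.

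The signalling counterpart of the decoy, Il1r1, which encodes the IL-1 receptor that carries the intracellular domain, was barely detected. It had 0, 1.18 and 0 CPM in CB2 KO and 0, 2.49 and 0 CPM in WT, which corresponds to 25 counts in 1 CB2 KO library and 51 counts in 1 WT library, and it did not pass the low-count filter. Among the ligands and soluble antagonists of these receptors, 6 of 17 listed genes had a row and 1, Il18bp, which encodes an IL-18 binding protein, was tested (log2 fold change 0.88, SE 0.72). Il1a, a ligand that the decoy binds, had 3.38, 2.41 and 0 CPM in CB2 KO and had 0 counts after rounding in every WT library. Il33 was at 0 in the 3 CB2 KO libraries and had 2.43 CPM in WT replicate 3, with 0 in the other WT libraries. The antagonist gene Il1rn was at 0, 3.11 and 1.51 CPM in CB2 KO and at 0 in WT.

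The IL-33 receptor chain Il1rl1 (chromosome 1, 40429570 to 40465415, plus strand) had the most counts of the set, and its groups differed by less than their spread. It had 929, 944 and 898 CPM in CB2 KO replicates 1 to 3, against 896, 999.7 and 997 CPM in WT replicates 1 to 3. The lowest WT library lay below all CB2 KO libraries and the other WT libraries above them, so the groups overlapped. CB2 KO over WT gave a log2 fold change of -0.06 (SE 0.06, 95% interval -0.20 to 0.08; adjusted p = 0.836 by edgeR's quasi-likelihood test), and -0.06 with the library labelled CB2 KO replicate 1 left out. Libraries of a genotype were close, with a coefficient of variation of 2.51% in CB2 KO and 6.15% in WT, against 0.744% and 0.723% from counting alone. Il1rl1 supplied 60.8 to 70.9% of all counts of the 7 genes in a library.

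Its partner Il1rap (chromosome 16, 26581704 to 26730117, plus strand), the accessory chain that ST2 shares with the IL-1 and IL-36 receptors, had far fewer counts and varied more. It had 10.9, 11.7 and 18.3 CPM in CB2 KO, against 18.7, 9.31 and 26.0 CPM in WT. The highest and the lowest of the 6 values were both from WT libraries. Its log2 fold change was -0.40 (SE 0.43, 95% interval -1.43 to 0.62), and -0.27 leaving out the library labelled CB2 KO replicate 1. It was -0.08 when WT replicate 3 was left out and -0.72 when WT replicate 2 was. The coefficient of variation was 29.7% in CB2 KO and 46.5% in WT, against 6.20% and 5.34% expected from counting, so the spread between libraries was several times the counting error. A noncoding gene on the other strand, Gm20319, shares 552 exonic bases with Il1rap and was not analysed here; whether reads were counted by strand is not known from the sources used here.

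The IL-25 receptor is formed by the ligand-binding Il17rb (chromosome 14, 29996135 to 30008896, minus strand) and Il17ra (chromosome 6, 120463247 to 120487559, plus strand), which also forms part of the receptors for IL-17. Il17rb had 27.3, 38.0 and 40.6 CPM in CB2 KO and 29.6, 38.9 and 23.9 CPM in WT, with overlapping groups. The log2 fold change was 0.18 (SE 0.26, 95% interval -0.44 to 0.79), and 0.34 with the library labelled CB2 KO replicate 1 left out, which was the lowest of its group. It was 0.04 when WT replicate 3 was left out and 0.38 when WT replicate 2 was. Il17rb shares 141 exonic bases with Actr8 on the opposite strand, so some of its counts could belong to that gene.

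Il17ra had 80.4, 117 and 99.0 CPM in CB2 KO and 72.3, 117 and 117 CPM in WT. Replicate 1 was lowest in each genotype, and the groups overlapped. Il17ra had a log2 fold change of -0.03 (SE 0.23, 95% interval -0.57 to 0.51) and its sign turned to 0.10 with the library labelled CB2 KO replicate 1 left out, to 0.09 without WT replicate 2 and to 0.07 without WT replicate 3, so no direction can be given.

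Crlf2 (chromosome 5, 109554709 to 109558993, minus strand), the TSLP-binding chain, had 22.01, 18.5 and 26.3 CPM in CB2 KO and 20.2, 17.2 and 27.4 CPM in WT. In both genotypes replicate 2 was lowest and replicate 3 highest, and the ranges nearly coincided. The log2 fold change was 0.05 (SE 0.28, 95% interval -0.61 to 0.71) and 0.05 with the library labelled CB2 KO replicate 1 left out, but -0.08 when CB2 KO replicate 3 was left out and -0.092 when WT replicate 2 was. Il7r, the chain with which CRLF2 forms the TSLP receptor and the receptor for the IL-7 in the culture, was at 128, 107 and 133 CPM in CB2 KO against 138, 162 and 143 CPM in WT. All CB2 KO libraries lay below all WT libraries, with a log2 fold change of -0.28 (SE 0.13; adjusted p = 0.610 by edgeR's quasi-likelihood test).

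The IL-18-binding chain Il18r1 (chromosome 1, 40465552 to 40500854, plus strand) begins 136 bases after the end of Il1rl1 and was among the lowest of the set per length. It had 13.7, 13.1 and 15.7 CPM in CB2 KO and 10.7, 7.66 and 13.4 CPM in WT. The highest WT library lay above the lowest CB2 KO library, so the groups overlapped by a narrow margin. The log2 fold change was 0.43 (SE 0.32, 95% interval -0.33 to 1.18; adjusted p = 0.774 by edgeR's quasi-likelihood test), and 0.45 leaving out the library labelled CB2 KO replicate 1. It was 0.24 when WT replicate 2 was left out and 0.61 when WT replicate 3 was. Its partner chain Il18rap had 123, 115 and 136 CPM in CB2 KO and 128, 118 and 105 CPM in WT, with a log2 fold change of 0.08 (SE 0.12).

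**Figure D2:**
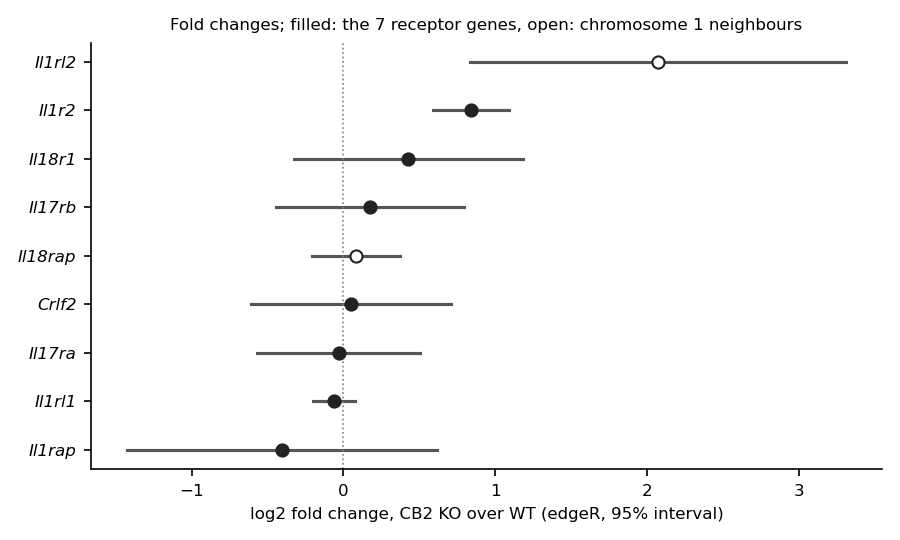
Log2 fold change of CB2 KO over WT for the receptor genes and their cluster neighbours, with 95% intervals from edgeR's quasi-likelihood fit of 3 libraries per group. The interval of Il1r2 (0.59 to 1.09) is narrow and lies above 0, that of Il1rl1 (-0.20 to 0.08) is narrow and includes 0, and those of the other 5 listed receptors are wider and include 0.

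The width of these intervals sets what could be seen. For Il1rl1 the interval of the fold ran from 0.871 to 1.06, whereas for Il1rap the interval runs from a fold of 0.372 to 1.53 and for Il18r1 from 0.798 to 2.27. For Il17rb the fold interval was 0.737 to 1.73, for Il17ra 0.673 to 1.42 and for Crlf2 0.655 to 1.63. Adjusted p-values by edgeR's quasi-likelihood test were 0.855 for Il1rap, 0.904 for Il17rb, 0.980 for Il17ra and 0.977 for Crlf2. A p that misses the threshold does not show that these genes had the same level in both genotypes.

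**Figure D3:**
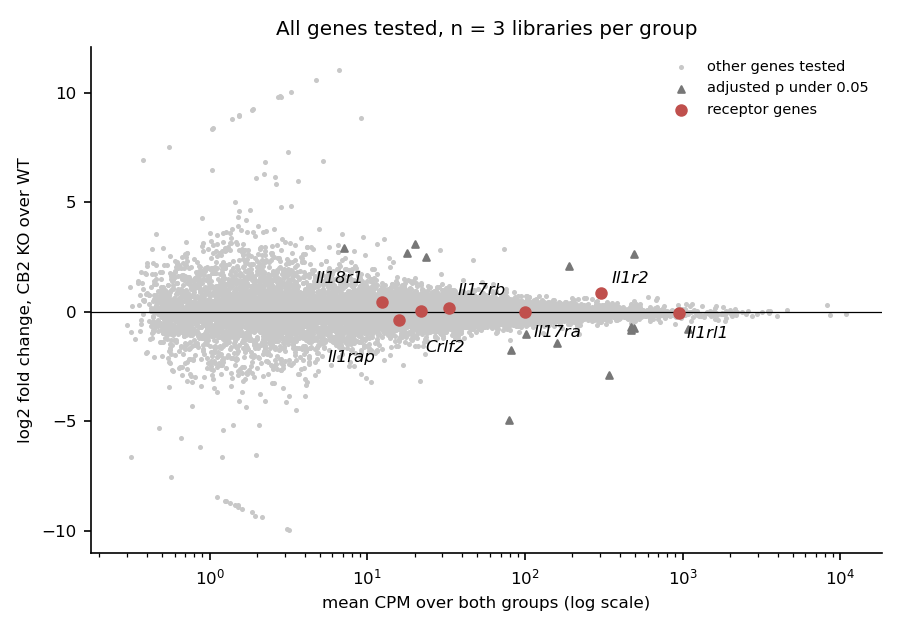
Log2 fold change of CB2 KO over WT against mean CPM over both groups (log scale) for 14084 genes tested, with the 7 receptor genes as large points and the 15 genes past the adjusted p threshold as triangles. Il1r2 stands above the bulk of genes of its abundance, and the other 6 receptor genes lie within it.

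Levels of different genes can be compared only per length, so CPM was divided by the exonic length in kb. On that scale Il1r2 and Il1rl1 stood together far above the other receptors, and their order differed between genotypes. Il1r2 was at 204 ± 25.6 CPM per kb in CB2 KO and 114 ± 5.53 in WT, and Il1rl1 at 134 ± 3.36 CPM per kb in CB2 KO and 140 ± 8.60 in WT (SD, n = 3 each). The ratio of Il1r2 to Il1rl1 per length was 1.73, 1.39 and 1.44 in CB2 KO replicates 1 to 3 and 0.907, 0.798 and 0.743 in WT replicates 1 to 3. Per length, the decoy gene was thus above Il1rl1 in every CB2 KO library and below it in every WT library. The same held when the longest annotated transcript was taken as the length (ratios from 0.768 to 1.79 over the 6 libraries). Counts are per gene, with 5 annotated transcripts for Il1rl1 and 4 for Il1r2, and which of them the cells made was not examined. With other lengths the order could differ.

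The remaining chains followed at a distance. Crlf2 was at 14.9 ± 2.63 CPM per kb in CB2 KO and 14.4 ± 3.52 in WT, Il17ra at 11.4 ± 2.12 in CB2 KO and 11.8 ± 2.98 in WT, and Il17rb at 9.53 ± 1.89 in CB2 KO and 8.31 ± 2.04 in WT. Over all 6 libraries their ranges were 11.5 to 18.3, 8.35 to 13.5 and 6.46 to 11.0 CPM per kb, so neighbours in this order overlapped. Il18r1 was at 2.94 ± 0.28 CPM per kb in CB2 KO and 2.20 ± 0.60 in WT, and Il1rap at 1.20 ± 0.36 in CB2 KO and 1.59 ± 0.74 in WT. These lowest chains overlapped with each other and not with the rest; with the longest transcript as the length, Il1rap stood above Il18r1 (3.499 against 2.98 CPM per kb over all libraries).

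**Figure D4:**
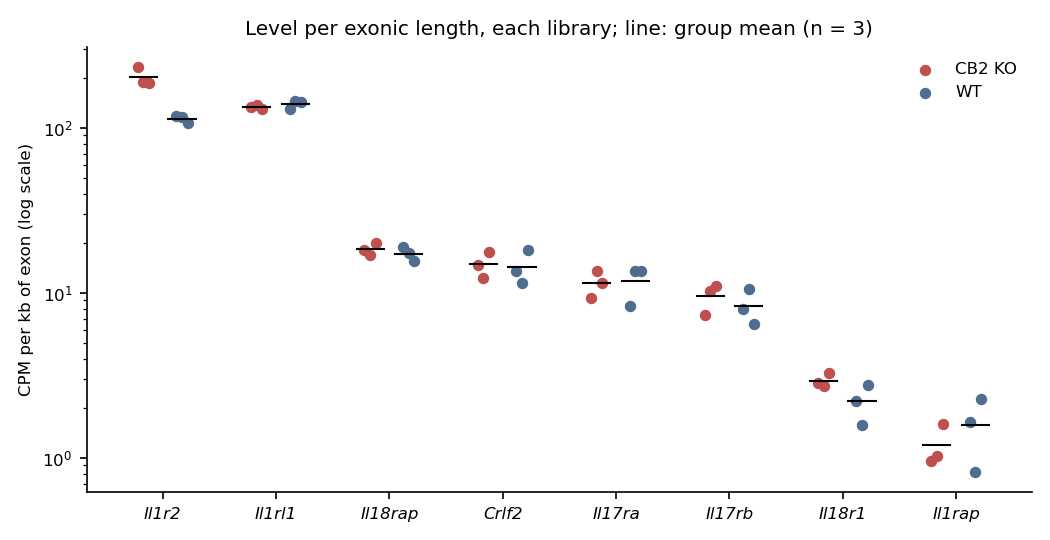
Level of each receptor gene in CPM per kb of exon (log scale) in the 3 CB2 KO libraries (left of each pair) and the 3 WT libraries (right). Il1r2 and Il1rl1 lie above 100 CPM per kb in all 6 libraries, and the other 5 of the set lie between 0.820 and 18.3 CPM per kb; Il18rap, the partner of Il18r1, is shown beside them.

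The chains of a receptor were unequal in abundance to different degrees. Per length, Il1rl1 exceeded its partner Il1rap 63.1- to 177-fold over the 6 libraries (118 ± 32.4 in CB2 KO and 106 ± 61.6 in WT), and 32.6- to 91.5-fold with the longest transcript as the length. The IL-18 receptor was unequal in the other direction, with the partner chain Il18rap 5.58 to 11.0 times the ligand-binding Il18r1 (6.66 to 13.1 times with the longest transcript). Chains of the IL-25 receptor were closer: Il17ra was 1.04 to 2.10 times Il17rb, but 0.810 to 1.63 times with the longest transcript, so their order depends on the length used. For the TSLP receptor, Il7r was 1.62 to 3.03 times Crlf2 (2.00 to 3.76 times with the longest transcript). Each of these 4 ratios had overlapping values in CB2 KO and WT libraries.

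The cluster spans 478 kb and holds, in order on the plus strand, Il1r2, Il1r1, Il1rl2, Il1rl1, Il18r1 and Il18rap. Of the 5 tested genes 4 had a positive log2 fold change, and the larger differences were in Il1r2 and Il1rl2. Il1rl2, which encodes the ligand-binding chain of the IL-36 receptor and is not one of the 7, had 12.3, 13.1 and 7.03 CPM in CB2 KO against 0.839, 3.41 and 3.85 CPM in WT. All CB2 KO libraries lay above all WT libraries, with a mean of 10.8 ± 3.29 CPM in CB2 KO and 2.70 ± 1.63 CPM in WT (SD, n = 3 each). The log2 fold change was 2.07 (SE 0.53, 95% interval 0.83 to 3.31), which did not pass (adjusted p = 0.351 by edgeR's quasi-likelihood test).

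Genes on either side of the cluster mostly had negative values, several of them smaller than their error. Outside the cluster and within 1000 kb of it, 8 genes were tested, of which edgeR called 0 at an adjusted p of 0.05, DESeq2 0 and limma-voom 0; 1 had an unadjusted p under 0.05, 1 had a positive log2 fold change, and the values ran from -1.09 to 0.19. Over all genes tested, edgeR and limma-voom each called 0.107% and DESeq2 2.58%, and 8.60% had an unadjusted p under 0.05 by edgeR. None of the 8 had all CB2 KO libraries above all WT libraries, beside 6.88% of all genes tested. The ubiquitin ligase gene Rnf149 was the 1 that had them all below (log2 fold change -0.60), beside 7.18% of all genes tested. Map4k4, the nearest protein-coding gene upstream of Il1r2, had a log2 fold change of -0.03 (SE 0.29). The SE also exceeded the size of the value for Mfsd9 (-1.09, SE 1.33), Gm3617 (-0.96, SE 1.44), Slc9a2 (-0.66, SE 0.94) and Rpl31 (-0.18, SE 0.27). For these genes no direction can be given. The targeted gene Cnr2 is on chromosome 4, which carries 0 of the 7 receptors.

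**Figure D5:**
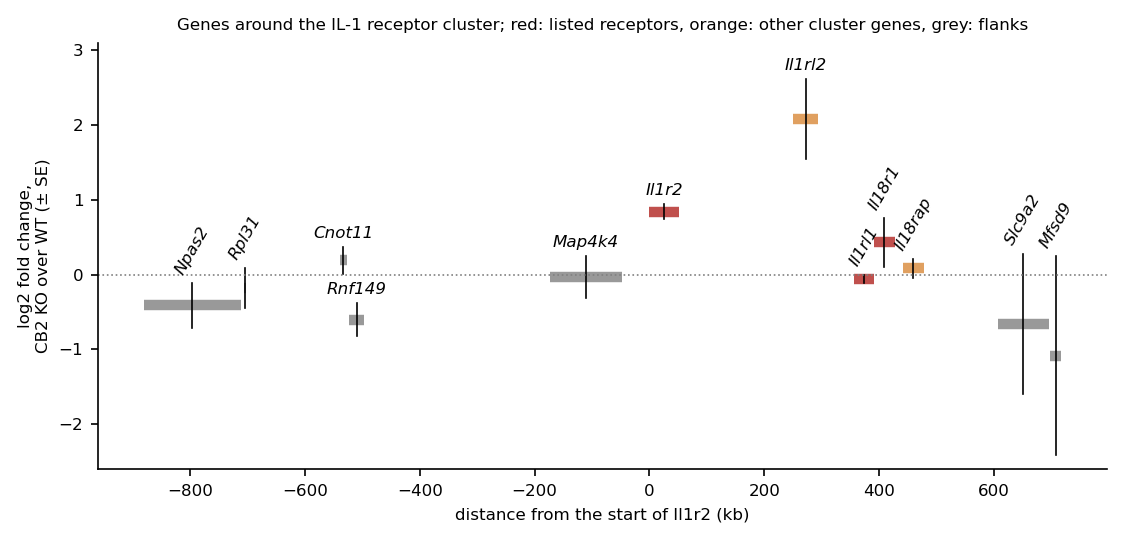
Log2 fold change of CB2 KO over WT (± SE, n = 3 libraries per group) for tested genes with a mean of at least 2 CPM within 1000 kb of the IL-1 receptor cluster, drawn at their distance from the start of Il1r2 in kb. Il1rl2 (2.07) and Il1r2 (0.84) lie above 0, while Il1rl1 (-0.06) and Il18rap (0.08), in the same cluster, lie near 0.

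Other chains of the same receptor families had mostly positive fold changes. For the gene lists here and below, edgeR called 0.107% of all genes tested, limma-voom 0.107% and DESeq2 2.58%. An unadjusted p under 0.05 by edgeR was found in 8.60% of them. All CB2 KO libraries lay above all WT libraries in 6.88% and below them in 7.18%. The log2 fold change was positive in 7037 of the 14084 genes tested. Of 10 such genes 6 were tested, 1 of which, Il17rd, was at 0 in all WT libraries and passed the filter through CB2 KO alone, so it is left out of the counts. Of the other 5, edgeR called 0 at an adjusted p of 0.05, limma-voom 0 and DESeq2 1 (Sigirr), 2 had an unadjusted p under 0.05, and 4 were positive, with a median log2 fold change of 0.50, or 0.47 with the library labelled CB2 KO replicate 1 left out. Sigirr, an IL-1 receptor family member known as a brake on IL-1 and IL-33 signalling, had 156, 151 and 145 CPM in CB2 KO against 105, 102 and 114 CPM in WT. The groups did not overlap, and the log2 fold change of 0.50 (SE 0.10) had an edgeR adjusted p of 0.243. Il17rd, an IL-17 receptor family member, had 10.6, 4.34 and 1.92 CPM in CB2 KO and 0 in WT.

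Downstream of the receptors, adaptors and kinases of the IL-1 and IL-33 pathway were split evenly. Of 23 listed genes 21 were tested, 11 positive and 10 negative, with a median log2 fold change of 0.03 (0.09 with the library labelled CB2 KO replicate 1 left out); edgeR called 0 at an adjusted p of 0.05, DESeq2 0 and limma-voom 0, and 3 had an unadjusted p under 0.05. Myd88, the adaptor recruited by IL-1 family receptors, had 136, 142 and 142 CPM in CB2 KO and 127, 133 and 136 CPM in WT. The 3 genes with the smallest p were Ikbkg, a regulatory subunit of the IκB kinase complex (log2 fold change 0.72, SE 0.25), Chuk, a catalytic subunit of it (-0.41, SE 0.17), and the ubiquitin-conjugating cofactor gene Ube2v1 (-0.24, SE 0.10).

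Among 8 adaptors of the IL-25 receptor 7 were tested, 3 positive and 4 negative; edgeR called 0 at an adjusted p of 0.05, limma-voom 0, DESeq2 1, and 1 had an unadjusted p under 0.05. That gene was Traf4, a TRAF family adaptor, with 28.8, 24.9 and 22.6 CPM in CB2 KO against 11.2, 13.7 and 12.9 CPM in WT. Its groups did not overlap, and its log2 fold change was 1.02 (SE 0.26; adjusted p = 0.351 by edgeR's quasi-likelihood test). Traf3ip2, which encodes the adaptor Act1 that binds IL-17 receptors, had a log2 fold change of -0.58 (SE 0.26), and the ubiquitin ligase gene Traf6 one of 0.30 (SE 0.35). The list's median was -0.02, and 0.05 with the library labelled CB2 KO replicate 1 left out.

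Partners of the TSLP receptor, 7 of 7 tested, were 2 positive and 5 negative with a median log2 fold change of -0.11 (-0.03 with the library labelled CB2 KO replicate 1 left out); edgeR called 0 at an adjusted p of 0.05, DESeq2 0 and limma-voom 0, and 1 had an unadjusted p under 0.05. That gene, the kinase gene Jak2, had 226, 198 and 189 CPM in CB2 KO against 163, 180 and 140 CPM in WT (log2 fold change 0.34, SE 0.12), without overlap of the groups.

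The list of brakes on IL-1 family signalling also holds Cish, a feedback inhibitor induced by STAT5, which is part of the counts that follow. Of 20 tested genes 12 were positive, beside 7037 of 14084 over all genes tested. Their median log2 fold change was 0.19, or 0.14 with the library labelled CB2 KO replicate 1 left out. By edgeR and by limma-voom 0 passed an adjusted p of 0.05. DESeq2 called 3 (Sigirr, Nfkbia and Cish), beside 2.58% of all genes, and 3 had an unadjusted p under 0.05 by edgeR, beside 8.60% of all genes. In 4 genes (Sigirr, Nfkbia, Nfkbie and Cish) all CB2 KO libraries exceeded all WT libraries, beside 6.88% of all genes. In 0 the reverse held, beside 7.18%. Nfkbia, the NF-κB inhibitor IκBα, had 149, 115 and 128 CPM in CB2 KO against 96.8, 86.7 and 95.4 CPM in WT (log2 fold change 0.49, SE 0.14). Cish had 519, 601 and 541 CPM in CB2 KO against 447, 448 and 488 CPM in WT (0.27, SE 0.08).

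Transcription factors that act on ILC2 receptor genes, 17 of 17 tested, were 12 positive and 5 negative with a median log2 fold change of 0.13, which turned to -0.04 with the library labelled CB2 KO replicate 1 left out. At edgeR's test 0 passed an adjusted p of 0.05, with limma-voom 0 and with DESeq2 1 (Rbpj, a mediator of Notch signalling, with a log2 fold change of 0.32 and SE 0.08), and 4 had an unadjusted p under 0.05. The ILC lineage factor gene Id2 had a log2 fold change of -0.13 (SE 0.05) and the nuclear receptor gene Pparg one of 0.24 (SE 0.08). A list of 20 genes taken as immediate targets of IL-33 in ILC2s includes Il1rl1 itself, and some of it, such as Icos and Klrg1, is also on the ILC2 marker list. Of the 20, 1 rose by edgeR's test at an adjusted p of 0.05 and 0 fell. Positive values were found in 13, with a median log2 fold change of 0.29, or 0.15 with the library labelled CB2 KO replicate 1 left out. DESeq2 called 5 of the 20 (2.58% of all genes) and limma-voom 0, and 7 had an unadjusted p under 0.05 by edgeR (8.60% of all genes). All CB2 KO libraries lay above all WT libraries in 3 genes (6.88% of all genes). They lay below them in 4 (7.18% of all genes), namely Il2ra, Icos, Klrg1 and Nfkb1. The gene that rose was the cytokine gene Il9 (235, 361 and 332 CPM in CB2 KO against 62.8, 74.1 and 82.8 CPM in WT; adjusted p = 0.0193 by edgeR's quasi-likelihood test). Its call was lost with limma-voom (adjusted p = 0.0729), with the replicate block in edgeR (adjusted p = 0.0518) and when any 1 library other than the one labelled CB2 KO replicate 1 was left out (edgeR adjusted p from 0.0829 to 0.264). Csf2, which encodes GM-CSF, had a log2 fold change of 0.62 (SE 0.09; edgeR adjusted p = 0.0884) and the NF-κB subunit gene Nfkb1 one of -0.37 (SE 0.07; edgeR adjusted p = 0.225).

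For each receptor, the genes with the most similar pattern over the 6 libraries were taken from tested genes with a mean of at least 10 CPM, by the root-mean-square difference of centred log2 CPM. Il1r2 was closest to the polycomb gene Phc3 (0.094), the tubulin chaperone gene Tbce (0.098) and the chemokine receptor gene Ccr7 (0.111). Ccr7 had 74.9, 59.6 and 50.3 CPM in CB2 KO against 34.1, 30.9 and 28.5 CPM in WT, with replicate 1 highest in each genotype as for Il1r2. Il1rl1 was closest to Hnrnpab (0.032), Ets1 (0.035) and Gm7308 (0.036), genes that likewise varied little. The nearest genes were Upp1, Pigo and Arl8a for Il17rb, Rnf214, Hdac2 and Rrp12 for Il17ra, Zmiz1, Manba and 9430015G10Rik for Crlf2, and Gm8615, Hyou1 and Cep70 for Il18r1. For Il1rap the nearest were Ice1 (0.172), Bpnt1 (0.189) and Efcab11 (0.198). The difference is not scaled to a gene's own spread, which was largest for Il1rap, so its size cannot be compared between receptors. With 6 libraries such likeness describes shared values and library properties only.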

How the data were processed

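RNA from 6 libraries of sorted lung ILC2s was analysed, grouped by the sample titles. The authors deposited an estimated count per gene and library (Partek E/M quantification, in which reads that fit several genes are shared out, per the file headers and names), and a normalized signal for the same genes, in which each count plus 1 was divided by 1 factor per library. Per the submitters' processing notes the tools were CASAVA 1.8.2, Partek and STAR (version listed as 3.5.3), with build mm10; use of strand is not stated in the sources used here. The lowest total of a gene over the 6 libraries is 10.

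Estimated counts were rounded and tested with edgeR 4.0.16 in R 4.3.3 (TMM, filterByExpr, robust quasi-likelihood fit, Benjamini-Hochberg adjustment over 14084 genes, threshold 0.05); DESeq2 1.42.0 and limma 3.58.1 were alternatives. Standard errors are the log2 fold change over the root of the F statistic. The edgeR fit alone was also run on simulated counts with planted changes, and no result given here rests on that run. Genes were matched to GENCODE M21 for exonic lengths and coordinates and to RefSeq for promoters. The members and gene lists were chosen with earlier results of these data known. Named genes are the 7 receptors, the cluster genes, Cnr2, up to 3 genes per pathway list with the smallest p and a mean of at least 10 CPM, and the 3 nearest patterns per receptor, with 1 gene that this rule selects not reported here; marker genes, flanking genes, ligands, Myd88, Il17rd, Nfkbie and the IL-33 targets without overlap were named after their values were seen. Genes of a list without a row were not analysed here.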

Additional observations from a re-analysis of the deposited data

How the results depend on the processing

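The count of genes past the threshold was 15 with edgeR and 363 with DESeq2, and it ran from 3 to 8 when 1 library was left out. Of the 7 receptors 0 passed with edgeR and 1, Il1r2, with DESeq2 (log2 fold change 0.85, adjusted p = 8.65e-13). Il1r2, Il1rl1, Il1rap, Il17rb and Il18r1 kept their sign in all 14 alternatives, over which Il1rap ran from -0.72 to -0.08, Il17rb from 0.04 to 0.38 and Il18r1 from 0.24 to 0.61. Leaving out 1 library moved Crlf2 between -0.092 and 0.24 (-0.08 without CB2 KO replicate 3, -0.092 without WT replicate 2) and Il17ra between -0.24 and 0.10 (0.10 without CB2 KO replicate 1, 0.09 without WT replicate 2, 0.07 without WT replicate 3); the cause was not tested. With the longest transcript as the length, levels over all libraries were 213 CPM per kb for Il1r2, 178 for Il1rl1, 12.8 for Il17rb and 3.499 for Il1rap, since fewer bases are counted. Replicate numbers are shared by the genotypes, but the deviations of same-numbered libraries correlated at 0.074, 0.031 and 0.020, and 3 of 6 libraries correlated best with their own number, so the numbers were not taken to pair samples. With the replicate block 3 genes passed and Il1r2 had a log2 fold change of 0.84 (edgeR adjusted p = 0.262). Il1r1 was at 0 in 4 libraries, among them WT replicate 1, which had the highest library total. It had 25 counts in CB2 KO replicate 2 and 51 in WT replicate 2, and the cause was not tested.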
